A study of Mus musculus with 9 samples.

Results

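Heat shock proteins and chaperonins were followed as a group of genes across 9 bulk RNA-seq libraries of tumor-infiltrating CD8+ T cells. The group was set by gene symbol alone, as the protein-coding mouse genes of the Hsp, Dnaja, Dnajb, Dnajc and Cct series. No measured value entered this rule, although it was chosen with earlier results of these data known. The rule matched 83 genes of the GENCODE M39 annotation, of which 81 had a row among the 32976 genes of the count tables, and the rest were not analysed here. By role, the 81 genes held 3 Hsp90 genes, 10 Hsp70 genes, 3 Hsp110 genes, 2 genes of the mitochondrial chaperonin, 9 genes of the cytosolic chaperonin series, 7 small heat shock protein genes, 4 Dnaja, 13 Dnajb and 28 Dnajc genes, plus Hspbp1 and Hspbap1, which matched by symbol only.

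The cells came from wildtype BALB/c mice carrying subcutaneous CT26.WT tumors, a colorectal carcinoma line, and all 3 groups shared treatment with the PD-1 antibody clone RMP1-14, given 3 times into the peritoneum on days 3, 6 and 9. CD8+CD44+ T cells binding a tetramer of the tumor peptide GSW11 were sorted by staining into a high avidity and a low avidity fraction. TetHighProg held high avidity cells of progressing tumors (replicates 1, 2 and 5), TetLowProg low avidity cells of progressing tumors (replicates 9, 10 and 12) and TetLowReg low avidity cells of regressing tumors (replicates 6, 7 and 8). Untreated tumors and high avidity cells of regressing tumors were not analysed here. The study describes a single set of progressing tumors as the source of both TetHighProg and TetLowProg cells. The labels do not tie a TetHighProg library to a TetLowProg library of the same tumor, so the tests treated the libraries as independent, and p-values measured the spread between these libraries only.

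Molecular chaperones bind unfolded or partly folded proteins and help them to fold, assemble or reach the protease. Hsp70 proteins work in cycles of ATP binding with a J-domain protein of the Dnaj series, which delivers clients and speeds ATP hydrolysis, and with an exchange factor such as the Hsp110 proteins. Hsp90 takes over late folding intermediates, including kinases and hormone receptors, and the ring of the CCT chaperonin encloses actin and tubulin. Activated T cells are known to raise protein synthesis, and many, though not all, chaperone genes are switched on by heat shock factors that bind repeated GAA units, the heat shock element.

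Promoter sequences are shown for the genes on which the results below turn, with pairs of facing units (GAANNTTC or TTCNNGAA, each its own reverse complement) in capitals. Hspa8 and Dnaja1 were found in every library, Hsph1 had the smallest p in both comparisons with TetHighProg, Hspd1 and Hspe1 share a promoter, and Hspb1, a classic heat shock gene, had no count in any library. Each stretch is the 250 bases before the canonical transcript start in build GRCm39, written on the strand of the gene, at chr9:40712030-40712279 (plus), chr4:40722218-40722467 (plus), chr5:149559807-149560056 (minus) and chr5:135916510-135916759 (plus) for Hspa8, Dnaja1, Hsph1 and Hspb1, and the 107 bases between the facing starts of Hspd1 and Hspe1 at chr1:55127184-55127290, written on the strand of Hspe1.
Hspa8: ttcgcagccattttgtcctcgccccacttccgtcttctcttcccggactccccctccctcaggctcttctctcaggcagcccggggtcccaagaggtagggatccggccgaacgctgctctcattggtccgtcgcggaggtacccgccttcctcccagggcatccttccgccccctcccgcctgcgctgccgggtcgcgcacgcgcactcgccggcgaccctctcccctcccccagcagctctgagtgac
Dnaja1: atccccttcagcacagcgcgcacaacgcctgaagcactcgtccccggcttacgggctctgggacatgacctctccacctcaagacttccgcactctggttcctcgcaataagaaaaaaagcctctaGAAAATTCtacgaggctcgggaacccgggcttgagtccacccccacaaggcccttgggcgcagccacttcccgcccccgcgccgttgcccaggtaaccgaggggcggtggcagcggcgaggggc
Hsph1: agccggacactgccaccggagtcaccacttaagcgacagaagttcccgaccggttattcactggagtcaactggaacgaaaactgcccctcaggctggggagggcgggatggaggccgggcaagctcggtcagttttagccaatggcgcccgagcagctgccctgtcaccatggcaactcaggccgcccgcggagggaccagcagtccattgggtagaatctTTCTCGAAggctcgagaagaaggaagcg
Hspb1: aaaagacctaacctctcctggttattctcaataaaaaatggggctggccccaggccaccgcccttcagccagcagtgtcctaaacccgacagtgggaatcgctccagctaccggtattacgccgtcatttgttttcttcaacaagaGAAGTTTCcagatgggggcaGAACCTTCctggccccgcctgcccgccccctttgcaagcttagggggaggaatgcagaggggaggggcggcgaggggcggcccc
Hspd1-Hspe1: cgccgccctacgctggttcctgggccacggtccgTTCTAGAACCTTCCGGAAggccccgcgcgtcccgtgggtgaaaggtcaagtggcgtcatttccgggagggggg

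The Hspd1-Hspe1 stretch held 3 overlapping pairs in 1 unbroken run, Hspb1 held 2 pairs, Dnaja1 and Hsph1 held 1 each, and these letters did not occur in the 250 bases of Hspa8. Across the 81 genes, 15 promoters (18.5%) held at least 1 pair, compared with 2518 of 20726 protein-coding promoters (12.1%). Pairs joined through a shared unit occurred in 2 of the 81 (2.47%), the facing promoters of Hspd1 and Hspe1, which count the same bases, compared with 0.338% of all promoters. These matches are a description of letters and were not tested.

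The libraries differed widely in how many genes they held. Totals ran from 16405306 to 36429515 gene counts, yet 4 libraries, TetHighProg 1 and 2, TetLowReg 6 and TetLowProg 10, held only 599 to 1298 genes at 10 counts or more, here called found, and the other 5 held 3181 to 8071. Libraries were made by Smart-seq2 with 22 cycles of amplification and no molecular identifiers, so intervals cover counting error only. In sorted bulk samples, fewer expressing cells and less RNA per cell cannot be told apart. T cell markers were found in every library, 3 to 12 of 12, with 3 in TetHighProg 2. Cd8a had 0 counts in TetHighProg 1 and 2 and TetLowProg 10, where Cd8b1 had 75010 to 79539. TetLowReg 6 had 47022 of Cd8a and 8 of Cd8b1. Cd44, used in the sort, had 0 counts in TetHighProg 1 and 2, TetLowReg 6 and TetLowProg 10, 2 in TetLowReg 7 and 287 to 1421 elsewhere. In TetHighProg 2, Cd3d, Trac, Trbc1 and Trbc2 had 0 counts and Lck had 64706. Markers of B cells, a cell type the gate should leave out, were found 6 to 7 of 7 in TetLowReg 7 and 8 and TetLowProg 12, and their part in the results below was not tested.

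Chaperone genes were found more often than protein-coding genes in general in each of the 9 libraries. In TetHighProg 1, 2 and 5, 9, 7 and 27 of the 81 were found. The 3 TetLowReg libraries 6, 7 and 8 held 7, 41 and 42, and TetLowProg 9, 10 and 12 held 53, 11 and 41. As a share, this was 8.64% to 65.4% of the chaperone genes beside 2.65% to 35.4% of the 20726 protein-coding genes. The 4 libraries with the fewest genes held 7 to 11 and the other 5 held 27 to 53, and the groups overlapped. The means were 14.3 ± 11.02 in TetHighProg, 30.0 ± 19.9 in TetLowReg and 35 ± 21.6 in TetLowProg (SD, n = 3 each), and two-sided exact permutation tests, which cannot go below 0.1 with 3 against 3, gave p = 0.4 for TetLowReg against TetHighProg, p = 0.2 for TetLowProg against TetHighProg and p = 0.7 between the low avidity groups. Without the 4 libraries with the fewest genes, a setting added after the data were seen, the means were 41.5 in TetLowReg and 47 in TetLowProg, beside 27 in TetHighProg 5.

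**Figure D1:**
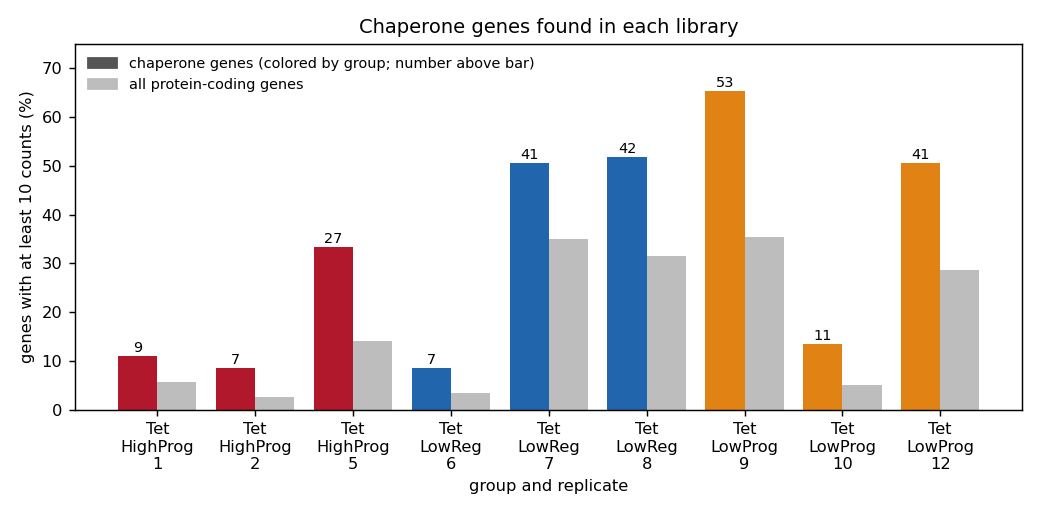
Percent of the 81 chaperone genes (colored bars, number found above each) and of all 20726 protein-coding genes (gray bars) with at least 10 counts, for each library by group and replicate. Every colored bar stands above its gray bar, and TetHighProg 1 and 2, TetLowReg 6 and TetLowProg 10 hold 7 to 11 chaperone genes each.

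Across libraries, 61 of the 81 genes were found at least once and 20 never, 15 of these with no count at all. That is 24.7% of the chaperone genes found in no library, compared with 44.4% of the protein-coding genes. Only Hspa8 and Dnaja1 were found in all 9, or 2.47% of the group, compared with 165 protein-coding genes (0.796%). A further 5 genes were found in 7 or 8 libraries, 11 in a single library, and 5 of these 11 in TetLowProg 9 alone. TetLowProg 9 also held the highest CPM (counts per gene scaled to a library total of 1000000) for 24 of the genes, more than any other library. In TetLowReg or TetLowProg but in no TetHighProg library, 30 of the 81 genes (37.0%) were found, compared with 39.3% of the protein-coding genes. Among genes found at least once, this was 49.2% of the chaperone genes and 70.6% of the protein-coding genes. In TetHighProg libraries alone, 0 of the 81 were found, compared with 0.864% of the protein-coding genes.

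Hspa8, the constitutive cytosolic Hsp70 that folds new proteins and uncoats clathrin vesicles (chr9:40711630-40731039), carried the most RNA per length. Its mean was 1240 CPM per kilobase, and it ranked highest of the 81 in 7 of 9 libraries and among the 3 highest in all of them. Its level was 3308, 1023 and 6580 CPM in TetHighProg 1, 2 and 5. The TetLowReg libraries 6, 7 and 8 had 6521, 1026 and 2047, and TetLowProg 9, 10 and 12 had 1461, 3352 and 1393. All 3 groups overlapped, and the fitted log2 fold changes were -0.13 ± 2.09 for TetLowReg and -0.95 ± 2.11 for TetLowProg against TetHighProg (SE, edgeR adjusted p = 0.989 and 0.877).

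Dnaja1, a J-domain partner of cytosolic Hsp70 (chr4:40722056-40737149), was at 906, 1328 and 1590 CPM in TetHighProg. It reached 4566 in TetLowReg 6 but 279 and 625 in TetLowReg 7 and 8, and was at 488, 1499 and 173 in TetLowProg 9, 10 and 12. The TetLowReg range spanned that of TetHighProg on both sides. The other genes with the highest mean per length were Dnajc9, a histone-binding J-domain protein, at 269 CPM per kilobase, Hsp90ab1 at 256 and Dnajb1 at 212, compared with 228 for Dnaja1. The mean of Dnajc9 rested on TetHighProg 2, which had 70042 counts where TetHighProg 1 and 5, TetLowReg 6 and TetLowProg 10 had 0.

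Summed over the group, chaperone genes took 1.21%, 0.609% and 1.70% of all gene counts in TetHighProg 1, 2 and 5. The share was 1.84%, 0.456% and 0.650% in TetLowReg 6, 7 and 8 and 1.51%, 1.004% and 0.708% in TetLowProg 9, 10 and 12. Counting error was small beside this spread, with an exact 95% binomial interval of 1.69% to 1.70% in TetHighProg 5. Hspa8 alone made up 9.71% to 38.8% of these counts, and the 3 leading genes 38.5% to 84.0%. The means were 1.17% ± 0.545 in TetHighProg, 0.983% ± 0.751 in TetLowReg and 1.07% ± 0.403 in TetLowProg (SD, n = 3 each), and the exact permutation p was 0.8 in all 3 comparisons. Without the 4 libraries with the fewest genes the share was 0.553% in TetLowReg and 1.11% in TetLowProg, beside 1.70% in TetHighProg 5. In TetLowReg 7, mitochondrially encoded genes took 42.3% of the counts, compared with 0.999% to 12.8% in the other libraries.

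**Figure D2:**
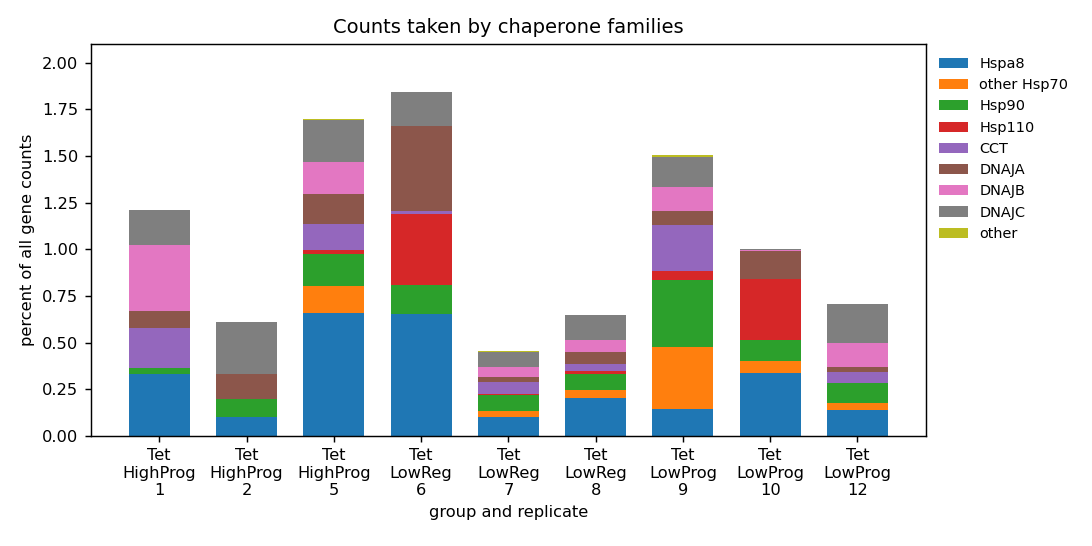
Percent of all gene counts taken by each chaperone family in each library, stacked, with Hspa8 shown apart from the other Hsp70 genes and the mitochondrial chaperonin, small heat shock proteins, Hspbp1 and Hspbap1 as other. Totals run from 0.456% in TetLowReg 7 to 1.84% in TetLowReg 6, and Hspa8 is the largest segment in all 3 TetLowReg libraries, whereas in TetHighProg and TetLowProg the largest segment differs between libraries.

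The cytosolic Hsp90 genes were unevenly found. Hsp90ab1, the constitutive form (chr17:45878552-45891949), had 10411, 23725 and 14373 counts in TetHighProg, 1, 14172 and 5026 in TetLowReg and 94438, 16743 and 12447 in TetLowProg. It was the only gene found in 8 libraries, and by CPM every TetLowProg library (395 to 2599) was above every TetLowReg library (0.0454 to 389). The gap between the closest libraries, TetLowProg 12 and TetLowReg 7, was small beside the spread, and the fitted log2 fold change was 1.37 ± 2.86 (edgeR adjusted p = 1.0). Hsp90aa1, the inducible form (chr12:110656842-110669166), had 0, 0 and 17953 counts in TetHighProg, 34485, 10819 and 4006 in TetLowReg and 28773, 11036 and 10629 in TetLowProg.

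Hsp90aa1 made up 0%, 0% and 55.5% of the summed counts of both genes in TetHighProg 1, 2 and 5, where 0 of 10411 and 0 of 23725 counts allow at most 0.0288% and 0.0126%, taking 3 counts as the limit that a count of 0 allows. In TetLowReg 6 it held 34485 of 34486 counts, in TetLowReg 7 and 8 its share was 43.3% and 44.4%, and in TetLowProg 9, 10 and 12 it was 23.4%, 39.7% and 46.1%. The 3 libraries at an extreme, TetHighProg 1 and 2 and TetLowReg 6, were among the 4 with the fewest genes, whereas the 6 others lay between 23.4% and 55.5%. The group means were 18.5% ± 32.1, 62.6% ± 32.4 and 36.4% ± 11.7 (SD, n = 3 each). Exact permutation tests gave p = 0.3 for TetLowReg against TetHighProg, p = 0.4 for TetLowProg against TetHighProg and p = 0.3 between the low avidity groups.

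**Figure D3:**
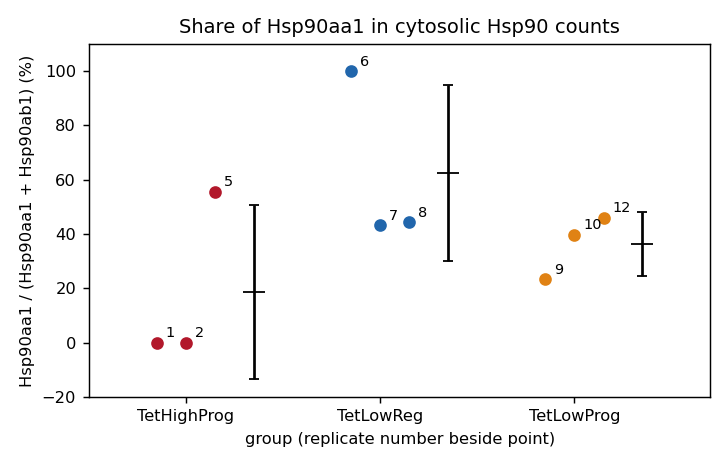
Share of Hsp90aa1 in the summed counts of Hsp90aa1 and Hsp90ab1, in percent, for each library (points, replicate number beside each), with the group mean and SD (black). TetHighProg 1 and 2, at 0%, and TetLowReg 6, with 34485 of 34486 counts, stand apart from the other 6 libraries, which lie between 23.4% and 55.5%.

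The chaperones of the endoplasmic reticulum varied between libraries of each group. Hspa5, the Hsp70 of that compartment and a sensor partner of the unfolded protein response (chr2:34661982-34668880), had 0, 0 and 32616 counts in TetHighProg, 0, 9131 and 2692 in TetLowReg and 104225, 0 and 9202 in TetLowProg. Hsp90b1, its Hsp90 (chr10:86526073-86541446), had 134, 0 and 7072 counts in TetHighProg, 0, 6342 and 5261 in TetLowReg and 8484, 1 and 10987 in TetLowProg. Neither separated the groups, since TetHighProg 5 lay within the range of the low avidity libraries. Dnajb9, a J-domain partner of Hspa5 that the unfolded protein response induces, was at 7453 counts in TetHighProg 5, 3381 and 265 in TetLowReg 7 and 8 and 9267 and 6615 in TetLowProg 9 and 12, and at 0 or 1 elsewhere. Dnajb11, another J-domain partner in the same compartment, had no count in any TetHighProg library, 0, 2153 and 12 in TetLowReg and 9702, 0 and 4602 in TetLowProg. Dnajc3, which inhibits the kinase PERK, was found in TetHighProg 5 at 1737 counts, in TetLowReg 7 and 8 at 231 and 445 and in TetLowProg 9 and 12 at 2674 and 16297.

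Among the mitochondrial chaperones, Hspa9, mortalin, which pulls proteins into the matrix, had no count in TetHighProg 1, 2 or 5. It had 0, 386 and 4159 counts in TetLowReg and 7211, 16784 and 1433 in TetLowProg. Hspa9 was thus found in all 3 TetLowProg libraries, including the gene-poor TetLowProg 10, and in 2 of 3 TetLowReg libraries. Hspd1 and Hspe1, which encode the Hsp60 ring and its Hsp10 lid and share the promoter shown above, were not found together throughout. Their annotated spans overlap on opposite strands and the counts disregard strand, so reads in shared bases cannot be told apart. Hspe1 had 756 counts in TetHighProg 5, 117 and 355 in TetLowReg 7 and 8 and 2369 and 530 in TetLowProg 9 and 12, whereas Hspd1 was found in TetLowReg 7 (1710) and TetLowProg 9 (2553) alone and had 0 in TetHighProg 5 and TetLowReg 8 and 8 in TetLowProg 12.

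Of the Hsp110 genes, which exchange the nucleotide of Hsp70, Hsph1 (chr5:149537636-149560156) had 0, 1 and 0 counts in TetHighProg. It had 74669, 1530 and 101 in TetLowReg 6, 7 and 8 and 7435, 82685 and 65 in TetLowProg 9, 10 and 12. All 6 low avidity libraries were above the 3 TetHighProg libraries, and the highest were the gene-poor TetLowReg 6 and TetLowProg 10, with 3388 and 3289 CPM. Hspa4 had 1, 0 and 4072 counts in TetHighProg, 8992, 903 and 1959 in TetLowReg and 9400, 0 and 550 in TetLowProg, so its groups overlapped. Hspa4l was at 133 and 219 counts in TetLowReg 7 and 8, 64 and 36 in TetLowProg 9 and 12, and 0 in the other 5 libraries.

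The inducible Hsp70 genes and the small heat shock proteins were seldom found. Hspa1a, the inducible Hsp70, was found in TetLowReg 7 (507 counts) and TetLowProg 9 (4457) and had 0 in the other 7. Hspa1b, its near-identical copy, had 8 and 277 counts there, and the split between the copies is uncertain because their reads are hard to assign. Hspb1 had 0 counts in all 9 libraries, where a count of 0 allows at most 0.0824 to 0.183 CPM by the same limit of 3 counts. Of the 7 small heat shock protein genes, 5 had no count in any library, and the other two, Hspb3 and Hspb8, reached 10 and 19 counts in 1 library each. Dnajb1, a heat-inducible J-domain partner of Hsp70, was in contrast abundant, at 112483, 0 and 27012 counts in TetHighProg, 1, 12162 and 4718 in TetLowReg and 22485, 585 and 29157 in TetLowProg.

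CCT is built from 8 different subunits, of which the rule covers 7 and Tcp1 encodes the remaining one. Counting Tcp1, 1, 0 and 4 of the 8 genes were found in TetHighProg 1, 2 and 5, 1, 7 and 4 in TetLowReg 6, 7 and 8, and 8, 0 and 7 in TetLowProg 9, 10 and 12. TetLowProg 9 was thus the only library that held the full set, from 5438 counts (Tcp1) to 25101 (Cct7), a ratio of 4.62. In TetHighProg 1 the single subunit found was Cct3, with 71764 counts, while the other subunit genes had 0 to 2. Among the subunits found, the highest exceeded the lowest by 18.2 times in TetLowReg 7, 73.5 times in TetLowReg 8, 90.0 times in TetHighProg 5 and 381 times in TetLowProg 12. Cct4 was found only in TetLowProg 9 (11501 counts) and TetLowProg 12 (28). Cct2 was found in 5 libraries at 151 to 8218 counts, Cct5 in 4 at 679 to 9123, Cct6a in 3 at 800 to 7891, Cct7 in 4 at 268 to 25101 and Cct8 in 5 at 68 to 16130. Cct6b and Cct8l1 were found in none.

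Other J-domain genes varied as widely between libraries. Dnajb6, which suppresses aggregation, was found in 7 libraries at 53 to 6817 counts, and Dnajc7, which binds both Hsp70 and Hsp90, in 5 at 216 to 14978. Dnajc2, which works at the ribosome, was found in TetHighProg 1 at 27420 counts, in TetLowReg 7 and 8 at 6171 and 3679 and in TetLowProg 9, 10 and 12 at 4449, 2070 and 8026. Dnaja2, a relative of Dnaja1, had no count in TetHighProg, 0, 143 and 454 in TetLowReg and 7590, 0 and 1410 in TetLowProg.

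**Figure D4:**
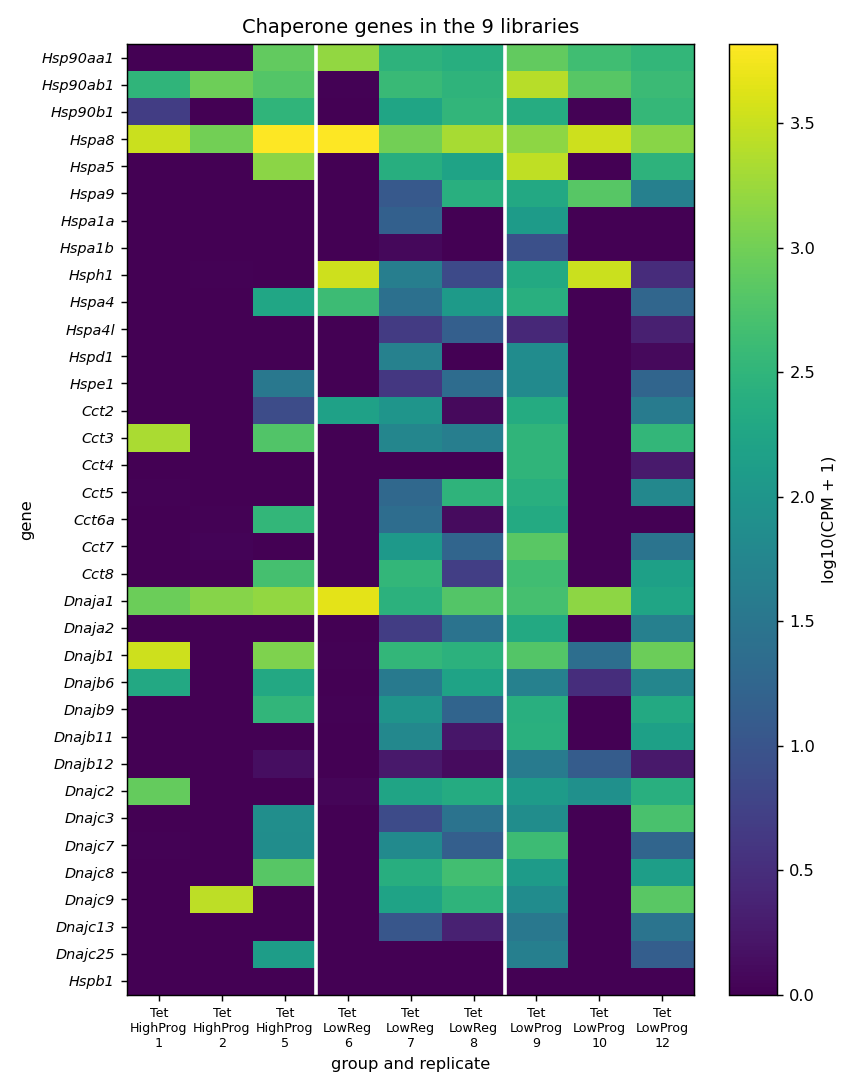
Level of 35 chaperone genes (rows) in the 9 libraries (columns, groups parted by white lines), on a log10 scale after adding 1 to the CPM. Hspa8 and Dnaja1 are bright throughout, Hsph1 is dark in the 3 TetHighProg libraries, Hspb1 is dark in all 9, and the columns of TetHighProg 1 and 2, TetLowReg 6 and TetLowProg 10 are mostly dark.

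The study asked how low avidity cells of regressing and progressing tumors differ from high avidity cells. Of the 81 genes, 42 passed the filter on low counts and entered the edgeR quasi-likelihood fit with 5813 genes in all, and the other 39 were not tested. Because all comparisons share libraries, they are not independent of each other. A call needed an adjusted p below 0.05 together with a log2 fold change beyond 2 in either direction. By this rule edgeR called 0 of 42 chaperone genes in each comparison, where the background over all genes tested was 0% for TetLowReg against TetHighProg, 0% for TetLowProg against TetHighProg and 0% for TetLowProg against TetLowReg.

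In TetLowReg compared with TetHighProg, 3 chaperone genes were higher and 1 lower at an unadjusted edgeR p under 0.05, compared with 19.0% of all genes tested higher and 0.516% lower. Hsph1 had a log2 fold change of 13.37 ± 4.28 (SE, edgeR adjusted p = 0.233), and its pooled CPM was 82970 times higher, with a counting interval of 14890 to 3277000 that rests on 1 count in TetHighProg. TetLowReg 6 held 74669 of the 76300 counts of Hsph1 in its group, and without it the log2 fold change was 8.75. Hspa9 (10.52 ± 4.62) and Hspa4l (6.69 ± 3.24), both with edgeR adjusted p = 0.233, had no count in TetHighProg and were at least 1647-fold and at least 128-fold higher against a floor of 3 counts over the group. TetLowReg 8 held 4159 of the 4545 counts of Hspa9 in its group, and without it the log2 fold changes were 7.09 for Hspa9 and 5.57 for Hspa4l. Dnajc25, a J-domain protein, was the lower gene (-9.0 ± 4.50, edgeR adjusted p = 0.233). It had no count in TetLowReg and 0, 0 and 2992 in TetHighProg, so the value of at least 917-fold lower rested on TetHighProg 5. Hsph1 alone had groups that did not overlap, 1 gene higher and 0 lower, compared with 4.80% and 0.998% of all genes tested.

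In TetLowProg compared with TetHighProg, 7 chaperone genes were higher and 0 lower at an unadjusted edgeR p under 0.05, compared with 24.8% and 0.550% of all genes tested. Hsph1 (13.54 ± 4.30), Hspa9 (11.89 ± 4.98), Dnajb11 (10.49 ± 5.06), Dnajc13 (7.81 ± 3.82) and Dnaja2 (9.67 ± 4.74) had the smallest p, each with edgeR adjusted p = 0.193. Hsph1 was 78970 times higher in pooled CPM, with a counting interval of 14170 to 3119000. TetLowProg 10 held 82685 of the 90185 counts of Hsph1 in its group, and without it the log2 fold change was 9.25. Against a floor of 3 counts, Hspa9 was at least 7422-fold, Dnajb11 at least 4175-fold, Dnaja2 at least 2627-fold and Dnajc13, a J-domain protein of endosomes, at least 606-fold higher. Dnajc11 and Dnajc15, both mitochondrial, were the other two. In Dnajb11, Dnaja2 and Dnajc13 the gene-poor TetLowProg 10 had 0 counts like TetHighProg. The log2 fold change of Hspa9 was 10.09 without TetLowProg 10, and that of Dnaja2 was 8.16 without TetLowProg 9. Libraries did not overlap for Hsph1, Hspa9 and Dnajb12, 3 genes higher and 0 lower, compared with 6.67% and 0.499% of all genes tested. Dnajb12, a J-domain protein of the endoplasmic reticulum membrane, had 0, 0 and 9 counts in TetHighProg and 1389, 297 and 26 in TetLowProg (log2 fold change 6.06 ± 4.38, edgeR adjusted p = 0.347).

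Between the low avidity groups, 0 chaperone genes were past an unadjusted edgeR p of 0.05 in either direction, compared with 0.430% of all genes tested higher in TetLowProg and 0.499% lower. By CPM, libraries did not overlap for Hsp90ab1 and Dnajb12, 2 genes higher in TetLowProg and 0 lower, compared with 2.77% and 0.654% of all genes tested. Dnajb12 had 0, 29 and 5 counts in TetLowReg, so its counts overlapped with the 26 of TetLowProg 12, and by CPM the closest libraries were 0.825 in TetLowProg 12 and 0.796 in TetLowReg 7. Its log2 fold change was 4.23 ± 4.21 (edgeR adjusted p = 1.0).

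In the edgeR fit of all 9 libraries, the median log2 fold change of the 42 genes was 0.64 for TetLowReg and 0.34 for TetLowProg against TetHighProg, compared with 3.52 and 4.27 over all 5813 genes, and 0.55 compared with 0.35 between the low avidity groups. Where a gene with 0 counts in a group took its bound instead, the chaperone medians were 0.64, 0.34 and 0.55 and those of all genes 3.62, 4.56 and 0.35. Positive values were held by 26 of 42 (61.9%) and 24 of 42 (57.1%) chaperone genes against TetHighProg, compared with 72.7% and 73.5% of all genes tested. With limma-voom the chaperone medians were 6.36 and 7.60 beside 6.34 and 7.14 over all genes, so the gap to all genes was not seen with that tool. With DESeq2 the chaperone medians were below those of all genes, at 0.58 and 1.59 beside 4.70 and 6.22 with default size factors and -0.29 and -1.42 beside 3.12 and 3.21 with poscounts. In edgeR with library size in place of TMM they were 0.07 and 0.86 beside 3.05 and 4.56. In 3 other edgeR settings the gap was smaller or turned. Without a filter the chaperone medians were 0.69 and 0.64 beside 1.31 and 0.18 over all genes, with a strict filter 0.42 and 0.04 beside 0.63 and 1.05, and in fits of the 2 groups compared 0.27 and 0.49 beside 0.35 and 0.76. The edgeR medians also depended on TetHighProg 5. With it left out they were 6.71 and 7.52 beside 5.80 and 6.85 over all genes, though more genes were then tested, 8270 in all. In that fit, 6 and 4 of 49 chaperone genes had an unadjusted edgeR p under 0.05 beside 3.95% and 3.91% of all genes. Without TetLowProg 9 the TetLowProg medians were -0.38 against TetHighProg and -0.49 against TetLowReg. Without the 4 libraries with the fewest genes, edgeR called 0 of 60 chaperone genes tested in each comparison, where the background was 0.0232%, 0.0232% and 0% of 12933 genes. At an unadjusted edgeR p under 0.05 there were 8, 9 and 3 of the 60, compared with 7.82%, 8.05% and 3.74% of all genes tested. The chaperone medians in that setting were 0.56, 2.88 and 0.81 beside 3.86, 3.17 and -0.13 over all genes, with TetHighProg 5 as the lone library of its group, assumed to vary like the others.

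**Figure D5:**
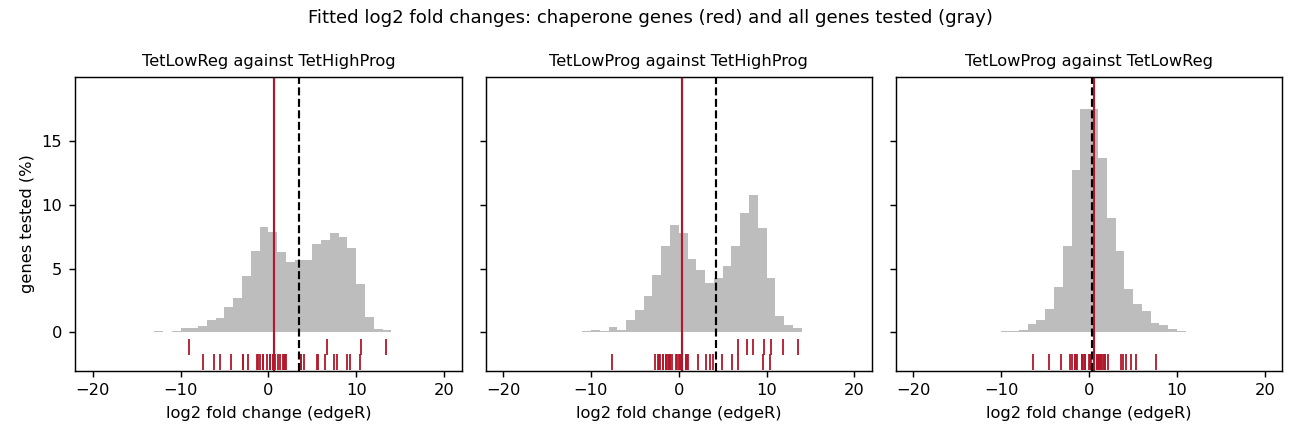
Log2 fold changes from edgeR in the 3 comparisons: gray bars give the percent of the 5813 genes tested in bins of width 1, and red ticks the 42 chaperone genes, the upper row with an unadjusted p under 0.05. The red line marks the chaperone median (0.64, 0.34 and 0.55) and the dashed line the median of all genes tested (3.52, 4.27 and 0.35).

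The number of calls depended on the tool. DESeq2 with default size factors called 8 of 42 chaperone genes for TetLowReg against TetHighProg (7 higher, 1 lower), 7 for TetLowProg against TetHighProg (all higher) and 1, Dnajc25, for TetLowProg against TetLowReg, compared with 29.4%, 35.6% and 0.465% of all genes tested. With poscounts size factors, DESeq2 called 5 (3 higher, 2 lower), 2 (both higher) and 0, compared with 17.6%, 17.9% and 0.310%. For limma-voom with quality weights the counts were 17, 22 and 0, all higher, compared with 41.5%, 49.9% and 0%. As a share of the 42, the calls of DESeq2 against TetHighProg were 4.76% to 19.0% and below the background in each case, and those of limma-voom were 40.5% and 52.4%. Hspa9, Hsph1, Cct5, Dnajb11, Dnaja2 and Dnajc13 were called by DESeq2 with default size factors and by limma-voom in both comparisons with TetHighProg. The share of all genes called by both tools was not computed. Of these genes, DESeq2 with poscounts called Cct5 and Dnajb11 for TetLowReg and Dnaja2 and Dnajb11 for TetLowProg. It gave no adjusted p for Hsph1 and Hspa9, and edgeR called none of these genes.

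Genes that work beside the chaperones gave 0 edgeR calls as well. Of 33 co-chaperones and cofactors, 25 were tested and 0 called in any comparison. At an unadjusted edgeR p under 0.05, 4 were higher in TetLowReg than in TetHighProg (Pfdn4, Ppid, Stub1 and Sil1) and 3 in TetLowProg (Pfdn4, Ppid and Cdc37), with 0 lower, compared with 19.0% and 24.8% of all genes tested higher. St13, the Hsp70-interacting protein Hip, and Hsf2, a heat shock factor, were found in all 9 libraries at 121 to 240433 and 42 to 71705 counts, whereas Hsf1, the main heat shock factor, was found in TetHighProg 5 (5646) and TetLowProg 9 (6959) alone. Of 15 genes of folding in the endoplasmic reticulum and the unfolded protein response, 13 were tested and 0 called by edgeR, with 3 higher in TetLowReg (Calr, Manf and P4hb) and 5 in TetLowProg (these 3, Atf6 and Sdf2l1) than in TetHighProg at an unadjusted p under 0.05, beside the same 19.0% and 24.8% of all genes. Calr, the calcium-binding lectin chaperone, had 0, 1 and 0 counts in TetHighProg, 0, 1449 and 5026 in TetLowReg and 20034, 37 and 9023 in TetLowProg. Between the low avidity groups 0 genes of either list had an unadjusted edgeR p under 0.05.

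Markers of other cells differed between libraries. The 7 B cell markers summed to 0.0299 to 6.44 CPM in TetHighProg, 0.0907 to 2754 in TetLowReg and 0.0398 to 2764 in TetLowProg, and Cd79a was at 0 in all but TetLowReg 7 and 8 and TetLowProg 12. The 10 markers of macrophages and dendritic cells summed to 0 to 1543, 0.227 to 8534 and 0 to 621 CPM in the same order of groups. Of this list, Csf1r had at most 9 counts in any library, whereas TetLowReg 7 had 299515 counts of Lyz2, 6085 of Cd68 and 4941 of Cd14, and TetHighProg 1 had 51557 of Lyz2. Hsph1 was highest in TetLowReg 6 and TetLowProg 10, where both lists summed to at most 0.227 CPM. In TetLowProg 9, which held the most chaperone genes, 1 of 7 B cell markers (Ighm) was found and Cd79a, Cd79b, Ms4a1, Igkc and Pax5 were at 0. The same library had 570 counts of Cd68. Of 6 tumor and stroma markers, TetLowProg 9 had 3038 counts of Pecam1, which endothelial cells and some leukocytes express, 2 of Epcam and 0 of Krt8, Krt18, Col1a1 and Col3a1, whereas Epcam (106) and Col1a1 (99) were highest in TetLowReg 7. Cd4 and Foxp3, markers of CD4 T cells, were found in TetLowReg 7 (2020 and 123 counts) and TetLowReg 8 (42 and 585) alone. Of 3 erythroid markers, 2 (Hba-a1 and Hbb-bs) were found in TetLowReg 7 and 8 and TetLowProg 12, and 0 in the other 6 libraries. The part of these markers in the results was not tested.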

How the data were processed

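RNA of 9 sorted T cell populations was sequenced and the authors deposited 1 table of whole-number read counts per gene and library. Per the labels, reads were aligned with STAR 2.7.6a to GRCm39, and featureCounts is also named. The count column that disregards strand was used, so overlapping genes cannot be told apart. The tables' summary lines list reads with several matches (7.51% to 14.5% of reads) apart from the genes, which bears on genes with processed copies. Of 32976 genes, 28645 were matched by identifier to GENCODE M39, and 4 summary lines per table were left out. No pair of libraries had identical counts.

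The chaperone genes and the other gene lists were chosen with earlier results of these data known. Counts were fitted over all groups with edgeR 4.0.16 (R 4.3.3; filterByExpr, TMM, quasi-likelihood test, prior count 2, Benjamini-Hochberg adjustment over 5813 genes), with a call at adjusted p under 0.05 and absolute log2 fold change above 2. Single values per library were compared by two-sided exact permutation tests (SciPy). Alternatives were DESeq2 1.42.0, limma 3.58.1, other filters and scaling, and leaving out libraries. Genes were named by 5 rules: a fixed list of well-known genes, the smallest unadjusted p, groups without overlap, the highest mean per length of the canonical transcript, and presence in all libraries. Other genes were named after their values were seen. Promoters were read from GRCm39.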

Additional observations from a re-analysis of the deposited data

How the results depend on the processing

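No paired analysis was possible because the groups share no replicate numbers and the labels do not tie libraries to tumors. The edgeR counts of 0 called chaperone genes held under other filters, library-size scaling, no fold-change threshold, 2-group fits and each library left out. With the fold-change threshold, edgeR called at most 4 of all genes tested in any of these settings and comparisons. These counts of 0 therefore do not set the chaperone genes apart from other genes. DESeq2 called 8, 7 and 1 (default) and 5 and 2 (poscounts), and limma-voom 17 and 22. Median log2 fold changes against TetHighProg became -0.294 and -1.42 with poscounts and 6.36 and 7.60 with limma-voom, and the median between the low avidity groups became -0.0373 with a strict filter. The cause was not tested.

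With each library left out in turn, medians ran from 0.303 to 6.71 for TetLowReg and -0.381 to 7.52 for TetLowProg against TetHighProg, and from -0.486 to 1.30 for TetLowProg against TetLowReg. Chaperone genes past an unadjusted edgeR p of 0.05 numbered 1 to 9, 2 to 11 and 0 to 2, beside 1.60% to 28.4%, 1.95% to 31.6% and 0.144% to 6.47% of all genes tested. The difference in genes found ran from 9.67 to 27.2 (TetLowReg minus TetHighProg), 11.7 to 32.7 (TetLowProg minus TetHighProg) and -6.5 to 17 (TetLowProg minus TetLowReg). The difference in share of counts, in percentage points, ran from -0.62 to 0.0741 (TetLowReg minus TetHighProg), -0.381 to 0.163 (TetLowProg minus TetHighProg) and -0.174 to 0.52 (TetLowProg minus TetLowReg), was 0.0572 without Hspa8 (TetLowProg minus TetHighProg, chosen after seeing the data) and -0.0198 of nuclear protein-coding counts (TetLowProg minus TetLowReg). Differences in the Hsp90aa1 share, in the same order, ran from 25.3 to 62.6, 8.61 to 36.4 and -35.8 to -7.44 percentage points: without TetLowReg 6 the first and last became 25.3 and -7.44 (from 44.0 and -26.2), and the middle one 8.61 without TetHighProg 1 or 2 and 36.4 without TetHighProg 5 (from 17.9). With 3 against 3 no permutation test could pass 0.05. Thinned to the smallest total, libraries held 7 to 53 of the genes, and only TetLowReg 7 changed, from 41 to 39.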
